A study of Arabidopsis thaliana with 21 samples.

Results

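NEET10-10 and NEET11-9 are transgenic lines of Arabidopsis thaliana that share the construct name NEET and differ in how much RNA they hold of AtNEET (AT5G51720). The lines were compared because their AtNEET levels were the highest and the one nearest to the wild type among the NEET lines. The comparison uses 6 of the 21 libraries of the series, 3 from each line. NEET5-4, another NEET line, and Col, the wild type, gave a second comparison of a line with much AtNEET RNA against plants with little, and they share no library with the pair. The other groups of the series are the transgenic lines H89C4-7, H89C11-7 and H89C23-10. They entered the shared estimate of spread and the counts over all libraries. Every group was grown as complete seedlings in liquid culture with 0.5x MS medium and frozen at 7 days, and no treatment is named in the labels. The labels call the genotypes wild type or transgenic line and give no promoter, tag or insertion site. Each AtNEET level is thus represented by 1 line, and line and AtNEET level cannot be told apart. Nor do the labels tie the 3 libraries of a group to separate cultures, so the p-values measure the spread between libraries, which may be technical.

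NEET proteins are small proteins that hold a labile iron-sulfur cluster and can pass it, or its iron, to other proteins. AtNEET is the plant member of the family, and it has been placed in chloroplasts and mitochondria, the organelles in which iron-sulfur clusters are assembled. Ferredoxins, photosystem I, the enzyme that reduces activated sulfate and enzymes of chlorophyll metabolism are among the plant proteins that need such clusters. Iron is taken up by the root with the reductase FRO2 and the transporter IRT1, under transcription factors of the bHLH family.

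AtNEET lies on chromosome 5 at 21009347 to 21010345 on the plus strand (TAIR10.1). Its normalized counts, reads divided by 1 size factor per library, were 30642, 33997 and 33871 in NEET10-10 and 330, 338 and 327 in NEET11-9. The groups did not come near each other, and the ratio of the means was 98.9. This difference chose the pair and was not tested. Col held 261 ± 93.9 (SD, n = 3), with libraries from 186 to 367, and NEET5-4 held 18191 ± 528 (SD, n = 3). The means of H89C4-7, H89C11-7 and H89C23-10 were 16100, 2380 and 1299. By level AtNEET was number 36 of the 20699 tested genes in NEET10-10 and number 10241 in NEET11-9. The neighbouring genes KEA5 and AT5G51730 differed by -0.16 and 0.16 on the log2 scale and were not called (limma adjusted p of 0.282 and 0.294).

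The 6 libraries of the pair held 18587012 to 24684401 reads. The first NEET10-10 library stood apart: its chi-square per degree of freedom against the others of its line was 10.9 and 8.75, against 2.61 between those 2, and the NEET11-9 libraries gave 1.73 to 2.01 among themselves. The first Col library stood apart likewise, with 14.8 and 8.10 against 1.41. Transcripts of shoot and root were present in all 6 libraries and those of pollen were near 0. The summed normalized count of 6 pollen genes was 4.29 to 12.6, with PPME1 and TIP1;3 at 0 in both lines. The summed counts of 16 root hair genes were 4911 to 6484 in NEET10-10 and 4536 to 5107 in NEET11-9. Different shares of cell types and different RNA levels per cell cannot be told apart in RNA from complete seedlings.

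Between the lines, 5806 of 20699 genes were called at an adjusted p under 0.05, which is 28.0% of the genes tested (limma on log2 of the normalized count + 1). NEET10-10 was higher in 2960 of them (14.3%) and lower in 2846 (13.7%). The large differences were one-sided. Of 629 genes called with at least a 2-fold difference (3.04%), 551 were higher in NEET10-10, AtNEET included (2.66%), and 78 were lower (0.377%). Without the first NEET10-10 library, 4865 genes were called, and 614 of them differed at least 2-fold.

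Among the 12 largest rises in NEET10-10 over NEET11-9 were CYP71A12, FOX1 and CYP82C2, genes of indolic defence chemistry. The 12 were taken from called genes without overlap between the lines. Their calls and separation were thus conditions of the choice and are given as descriptions. CYP71A12, a cytochrome P450 that makes indole-3-acetonitrile on the way to camalexin and related indolic cyanogens, had normalized counts of 2134, 1965 and 2225 in NEET10-10 and 81.5, 98 and 90.6 in NEET11-9. Every NEET10-10 library was above every NEET11-9 library, a separation that held in one direction or the other for 41.9% of tested genes (20.8% above, 21.1% below), and the difference was 4.54 ± 0.132 (SE) on the log2 scale (limma adjusted p of 3.33e-19). Col stood at 1519 ± 241 (SD, n = 3) and NEET5-4 at 6.58 ± 1.49 (SD, n = 3). NEET10-10 was thus near the wild type, and both NEET11-9 and NEET5-4 were far below it. FOX1 (AT1G26380), a flavin-dependent oxidase of the berberine bridge family that acts after CYP71A12 in the pathway of 4-hydroxyindole-3-carbonyl nitrile, had 635, 679 and 650 in NEET10-10 and 30.0, 42.7 and 31.8 in NEET11-9. The difference was 4.21 ± 0.274 (SE), with an adjusted p of 5.12e-12 (limma), and the groups did not overlap. CYP82C2, the hydroxylase that ends this pathway, had 48, 54.2 and 65.2 in NEET10-10 and 0, 0 and 0.816 in NEET11-9. A single read in the 3 NEET11-9 libraries stood against 183 in NEET10-10, a ratio of 201 with a 95% counting interval of 35.7 to 7991. Genes near FOX1 on chromosome 1 with berberine bridge domains, AT1G26390, AT1G26410 and AT1G26420, were higher by 4.43, 4.51 and 3.44 on the log2 scale. AT1G26420 was added after its values were seen. These genes lie between 9126737 and 9143336 (TAIR10.1), and their similarity, like that of CYP71A12 to its neighbour gene, means that reads could have been split between copies.

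CYP81F2, which modifies the indole ring of indolic glucosinolates, had 1573, 1764 and 1913 in NEET10-10 and 112, 122 and 122 in NEET11-9, a 14.6-fold difference on the log2(value + 1) scale (3.87 ± 0.0848 SE, limma adjusted p of 9.83e-22). Its Col libraries, from 503 to 647, lay between the lines. MYB51, an activator of indolic glucosinolate synthesis, was 1.72 ± 0.0659 (SE) higher, with 1414 to 1433 against 419 to 438. Of the 13 camalexin and indolic glucosinolate genes, all tested, 8 were higher and 2 lower in NEET10-10, with a median of 0.74 beside -0.01 over all tested genes. NEET5-4 against Col, where 31.0% of all tested genes were called, had none of the 13 higher and 8 lower, with a median of -0.48, and 12 were called in the test of the difference between the comparisons (22.4% of all tested genes). For this list and those below, the shares over all tested genes in the pair were 14.3% higher and 13.7% lower. In NEET5-4 against Col they were 14.1% higher and 16.9% lower.

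Promoter sequences are shown for 5 of these genes because they moved together and because the WRKY factors described next bind a short element, the W-box. Each is the 250 bases before the annotated gene start, read 5′ to 3′ on the gene's strand from the RefSeq genome TAIR10.1. Capitals mark the letters TTGACC or TTGACT and, for the opposite strand, GGTCAA or AGTCAA.
CYP71A12 (chr2:13101372-13101621, minus strand): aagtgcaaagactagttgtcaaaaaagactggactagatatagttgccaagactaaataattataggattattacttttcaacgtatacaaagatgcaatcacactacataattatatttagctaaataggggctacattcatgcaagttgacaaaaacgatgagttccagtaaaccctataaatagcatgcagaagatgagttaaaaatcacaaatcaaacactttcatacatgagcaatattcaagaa
CYP81F2 (chr5:23187590-23187839, plus strand): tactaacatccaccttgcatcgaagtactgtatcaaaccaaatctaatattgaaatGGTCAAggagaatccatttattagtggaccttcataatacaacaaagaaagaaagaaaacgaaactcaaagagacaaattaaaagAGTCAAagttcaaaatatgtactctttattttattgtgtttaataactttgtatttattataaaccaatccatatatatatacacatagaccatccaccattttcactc
FOX1 (chr1:9128569-9128818, minus strand): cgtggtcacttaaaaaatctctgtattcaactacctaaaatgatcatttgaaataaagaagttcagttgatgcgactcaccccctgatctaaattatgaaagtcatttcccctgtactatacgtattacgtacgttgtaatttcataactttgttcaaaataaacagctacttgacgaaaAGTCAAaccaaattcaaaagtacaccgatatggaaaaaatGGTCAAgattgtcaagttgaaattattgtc
AT1G26390 (chr1:9131780-9132029, minus strand): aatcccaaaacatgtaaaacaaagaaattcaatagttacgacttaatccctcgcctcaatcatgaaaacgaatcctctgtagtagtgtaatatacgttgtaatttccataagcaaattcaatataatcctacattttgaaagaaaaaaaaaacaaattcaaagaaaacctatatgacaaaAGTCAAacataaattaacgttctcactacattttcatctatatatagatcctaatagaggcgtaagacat
AT1G26410 (chr1:9140440-9140689, minus strand): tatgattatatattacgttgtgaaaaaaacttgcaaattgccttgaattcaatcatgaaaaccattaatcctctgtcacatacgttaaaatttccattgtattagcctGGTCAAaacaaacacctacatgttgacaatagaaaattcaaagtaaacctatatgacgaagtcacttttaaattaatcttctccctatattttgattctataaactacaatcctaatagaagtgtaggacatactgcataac

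The letters occurred at 2 places in the windows of CYP81F2 and FOX1, at 1 place in those of AT1G26390 and AT1G26410, and at none in that of CYP71A12. Among the 20603 windows of tested genes other than AtNEET that could be read, 28.5% held at least 1 such match and 6.08% held 2 or more. Among the 550 genes at least 2-fold higher in NEET10-10 the shares were 55.8% and 20.5%, and among the 78 genes at least 2-fold lower they were 23.1% and 8.97%. The G-box letters CACGTG, a palindrome, occurred in 7.45% of all windows, in 5.82% of the 550 and in 19.2% of the 78. These shares describe letters in a window and were not tested.

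Genes of cell-surface immunity, the response to microbial patterns sensed at the plasma membrane, were higher in NEET10-10 for 18 of 22 members, all tested, and lower for 1, with a median of 0.87. WRKY33, the factor that activates camalexin synthesis genes, had 6725, 6262 and 6179 in NEET10-10 and 1396, 1388 and 1456 in NEET11-9. NEET10-10 was above every library of NEET11-9 and of Col, which held 1647 to 2403, and the difference from NEET11-9 was 2.17 ± 0.0847 (SE; limma adjusted p of 1.37e-16). WRKY40 and WRKY53, other early factors of this response, were higher by 2.25 ± 0.0972 and 2.99 ± 0.137 (SE). PROPEP3, the precursor of a peptide that amplifies immune signalling, had 510, 261 and 343 against 34.3, 38.5 and 46.5. Its spread within NEET10-10 was wide, yet the groups did not overlap (3.15 ± 0.203 SE, limma adjusted p of 4.38e-12). Between NEET5-4 and Col, 4 of the 22 were higher and 11 lower, and 17 were called in the test of the difference.

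Salicylic acid signals systemic resistance, and 14 of the 25 tested genes of its list, which has 28 entries, were higher in NEET10-10 and none was lower, with a median of 0.36. CBP60G, a calmodulin-binding factor that turns on salicylic acid synthesis, had 1521, 1556 and 1553 in NEET10-10 and 143, 160 and 157 in NEET11-9. The lines did not overlap and differed 10.0-fold on the log2(value + 1) scale (3.33 ± 0.0638 SE, limma adjusted p of 1.06e-22). FMO1, which makes the mobile signal N-hydroxypipecolic acid, had 138, 107 and 147 against 10.3, 6.7 and 14.7, and PBS3, which acts in salicylic acid synthesis, had 185, 194 and 165 against 25.7, 25.1 and 34.3. Both were nearer to Col in NEET10-10 than in NEET11-9: Col held 116 ± 12.2 of FMO1 and 308 ± 13.9 of PBS3 (SD, n = 3), and NEET5-4 held 2.6 ± 0.469 and 16.4 ± 7.93 (SD, n = 3). In NEET5-4 against Col, 4 members were higher and 13 lower, beside 14.1% and 16.9% of all tested genes.

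Ethylene and jasmonate genes divided. Of 12 ethylene genes, all tested, 7 were higher and 2 lower, led by ERF6, a transcription factor of stress responses, with 1529, 1567 and 1510 against 496, 470 and 530 (1.62 ± 0.0878 SE, limma adjusted p of 1.18e-13). ERF5 and ERF104 were higher by 1.01 and 0.72, and EBF1, an F-box protein that removes the ethylene factor EIN3, was lower by 0.47. NEET5-4 had none of the 12 higher than Col and 10 lower. Of 24 tested jasmonate genes, of 28 listed, 9 were higher and 6 lower. LOX4, a lipoxygenase of jasmonate synthesis, had 483, 551 and 516 against 121, 111 and 106 (2.19 ± 0.113 SE), while LOX2, the main leaf enzyme of the same step, was lower by 0.54 ± 0.0655 (SE). JAZ9, a repressor that jasmonate removes, was higher by 1.00 ± 0.0488 (SE). LOX4 was also higher in NEET5-4 than in Col, by 0.40 ± 0.113 (SE; limma adjusted p of 0.00826).

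Genes of sulfur and oxygen responses were also mostly higher in NEET10-10 than in NEET11-9. Of 16 sulfur deficiency genes, all tested, 13 were higher in NEET10-10, with a median of 0.85. One was called lower, and none was in 5 of the 6 fits that each left out a library of the pair (all but the second of NEET10-10). APR3 and APR1 are reductases of activated sulfate that carry an iron-sulfur cluster. APR3 had 4187, 4529 and 4206 in NEET10-10 and 1736, 1715 and 1814 in NEET11-9, and Col was level with NEET11-9 at 1709, 1691 and 1677. The lines differed by 1.29 ± 0.0467 (SE; limma adjusted p of 3.19e-17), APR1 by 1.36 ± 0.0503, and SHM7, a serine hydroxymethyltransferase that marks low sulfur, by 1.70 ± 0.0633. Of the 16, 2 were higher and 8 lower in NEET5-4 than in Col, beside 14.1% and 16.9% of all tested genes. SHM7 was not called there (-0.08, limma adjusted p of 0.37). Of 12 tested hypoxia genes, of 14 listed, 7 were higher and none lower, with CML38, a calcium sensor of hypoxic cells, at 213, 199 and 238 against 60.9, 49.4 and 54.7. The median level of this list, relative to each gene's mean over all libraries, overlapped between NEET10-10 and Col. It was 0.19 to 0.65 in NEET10-10, 0.33 to 0.72 in Col, 0.05 to 0.24 in NEET5-4 and -0.14 to 0.07 in NEET11-9. PDC1, a pyruvate decarboxylase of fermentation, had 133, 243 and 196 against 123, 95.5 and 108, its first NEET10-10 library lying close to the NEET11-9 range (0.77 ± 0.167 SE, limma adjusted p of 0.000928). OM66, an ATPase of the mitochondrial outer membrane that marks stress signals from mitochondria, was higher by 1.77 ± 0.0929 (SE). Genes of mitochondrial stress signals and alternative respiration did not move together. Of 11 tested, of 12 listed, 4 were higher and 3 lower, with a median of 0.13. Between NEET5-4 and Col, 1 of them was higher and 7 were lower.

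**Figure D1:**
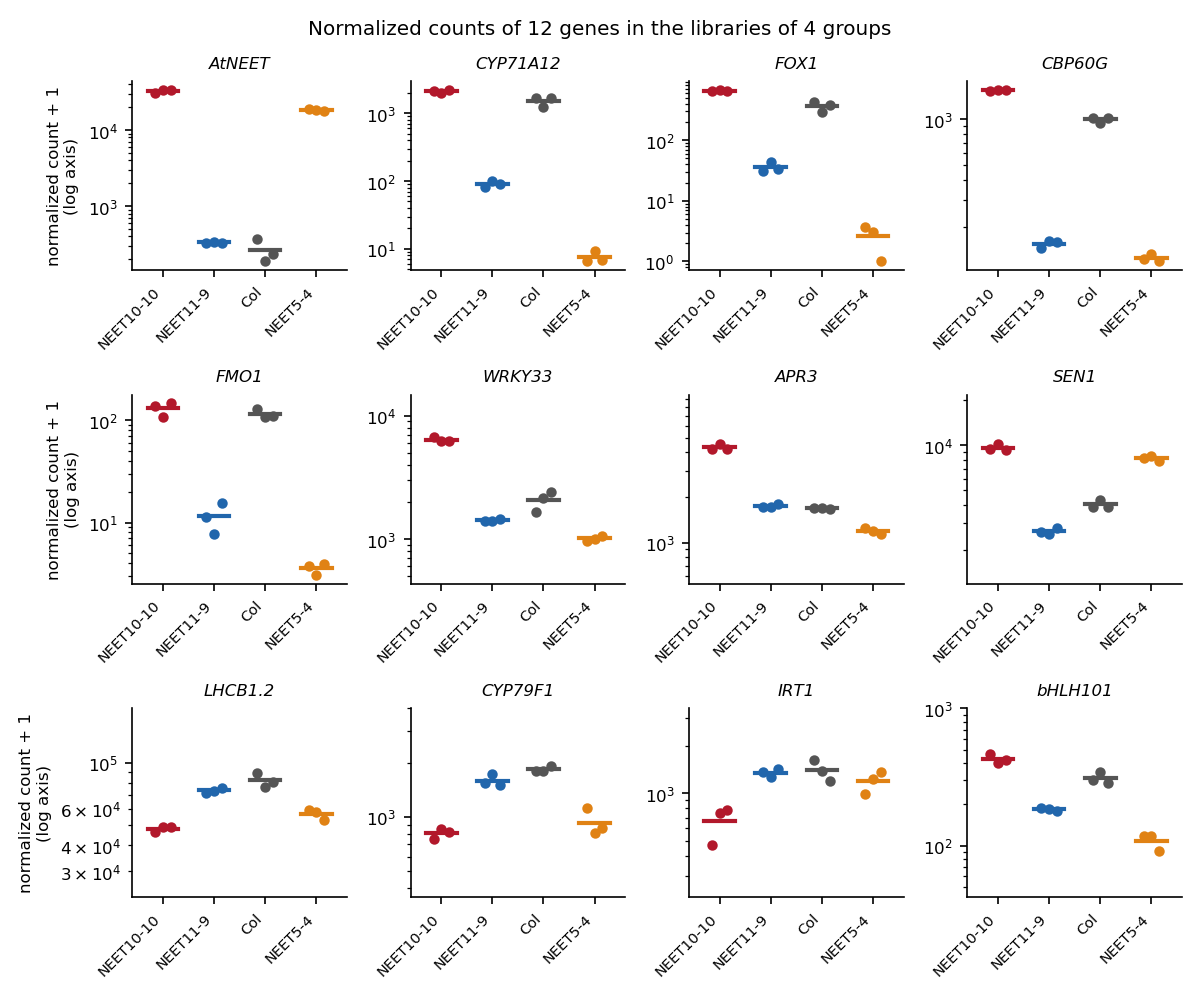
Normalized counts + 1 on log axes of 12 genes in NEET10-10, NEET11-9, Col and NEET5-4, with a point for each of the 3 libraries and a bar at their mean. CYP71A12, FOX1, CBP60G and FMO1 are high in NEET10-10 and Col and low in NEET11-9 and NEET5-4, whereas SEN1 is higher in NEET10-10 and NEET5-4 than in NEET11-9 and Col.

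**Figure D2:**
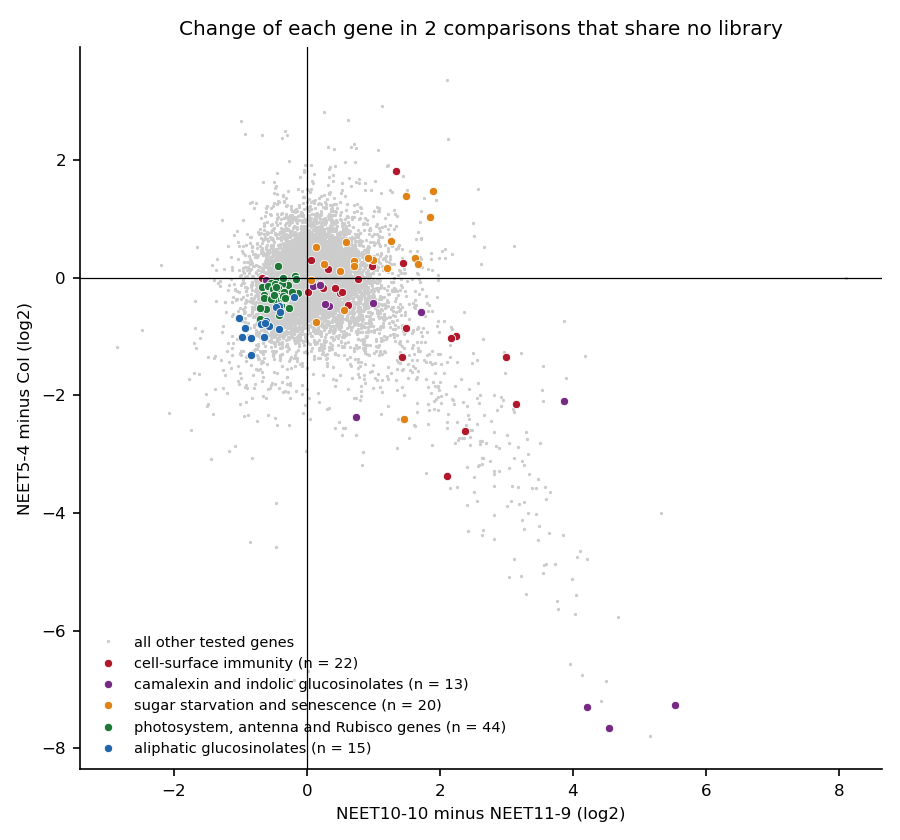
Log2 change between NEET10-10 and NEET11-9 (horizontal) and between NEET5-4 and Col (vertical) for 20698 tested genes, AtNEET left out, with 5 lists coloured. Genes with a large positive change on the horizontal axis, camalexin genes among them, mostly lie below 0 on the vertical axis, and sugar starvation genes lie mostly above 0 on both.

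The second comparison went the other way for most of the genes highest in NEET10-10. Of the 550 genes at least 2-fold higher in NEET10-10 than in NEET11-9, AtNEET left out, 342 (62.2%) were called lower in NEET5-4 than in Col, where 16.9% of all tested genes were called lower. Another 72 (13.1%) were called higher, beside 14.1% of all tested genes. Their median changes were 1.59 between the pair and -0.88 between NEET5-4 and Col, and 494 were called in the test of the difference, which shares the values that chose them. The 78 genes at least 2-fold lower in NEET10-10 went the same way in both: 45 (57.7%) were called lower and 3 higher in NEET5-4 than in Col, with medians of -1.23 and -0.96. Over all genes, 2000 (9.66%) were called in both comparisons in the same direction, 34.4% of the calls of the pair and 31.2% of those of NEET5-4 against Col. In opposite directions there were 1011 (4.88%), 17.41% and 15.8% of the calls. Across 20698 genes, Pearson's r between the changes was -0.290 and Spearman's rho was 0.148. These are descriptions across genes, which are not independent replicates.

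The position of Col and NEET5-4 between the lines depended on the size of the difference. Col was nearer to NEET10-10 than to NEET11-9 for 313 (56.9%) of the 550 higher genes, and NEET5-4 for 98 (17.8%). For 299 of them NEET5-4 was even lower than NEET11-9. Over all 2959 genes called higher, AtNEET left out, the order turned: Col was nearer to NEET10-10 for 881 (29.8%) and NEET5-4 for 1146 (38.7%). For the 78 lower genes, Col was nearer to NEET10-10 in 10 (12.8%) and NEET5-4 in 53 (67.9%). The 629 genes called at 2-fold were chosen by the difference between these lines, and 551 of them were higher in NEET10-10. Among them, all 3 NEET10-10 libraries were above all other 18 libraries of the series for 137, AtNEET included, and below them for 11. NEET11-9 was above all others for 7 and below all others for 52. Among all 5806 called genes the counts were 544 and 298 for NEET10-10 and 122 and 148 for NEET11-9. These counts follow in part from the choice of genes, and the share over all tested genes is not given.

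Most genes of sugar starvation and senescence were higher in NEET10-10 than in NEET11-9 and in NEET5-4 than in Col. In NEET10-10 against NEET11-9, 17 of 20 tested members, of 21 listed, were higher and none lower, with a median of 0.82, and in NEET5-4 against Col 15 were higher and 3 lower, with a median of 0.26. ASN1, an asparagine synthetase induced when sugar runs out, had 12361, 14379 and 12622 in NEET10-10 and 3388, 3488 and 3687 in NEET11-9. NEET5-4 was as high, at 14806, 14647 and 14260, and Col, at 4866 to 5599, stood between NEET11-9 and the other lines. The differences were 1.90 ± 0.0549 (SE; limma adjusted p of 3.33e-19) and 1.47 ± 0.0549. SEN1, a senescence gene that darkness induces, had 9421, 10230 and 9311 against 2642, 2542 and 2814, and DIN10, an enzyme of raffinose metabolism, was higher by 1.497 in the pair and by 1.39 in NEET5-4 against Col. The difference between the changes of DIN10 was not called (0.10, limma adjusted p of 0.33), while those of SEN1 and TPS11, a trehalose phosphate synthase family gene, were larger in the pair by 0.83 and 1.28.

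**Figure D3:**
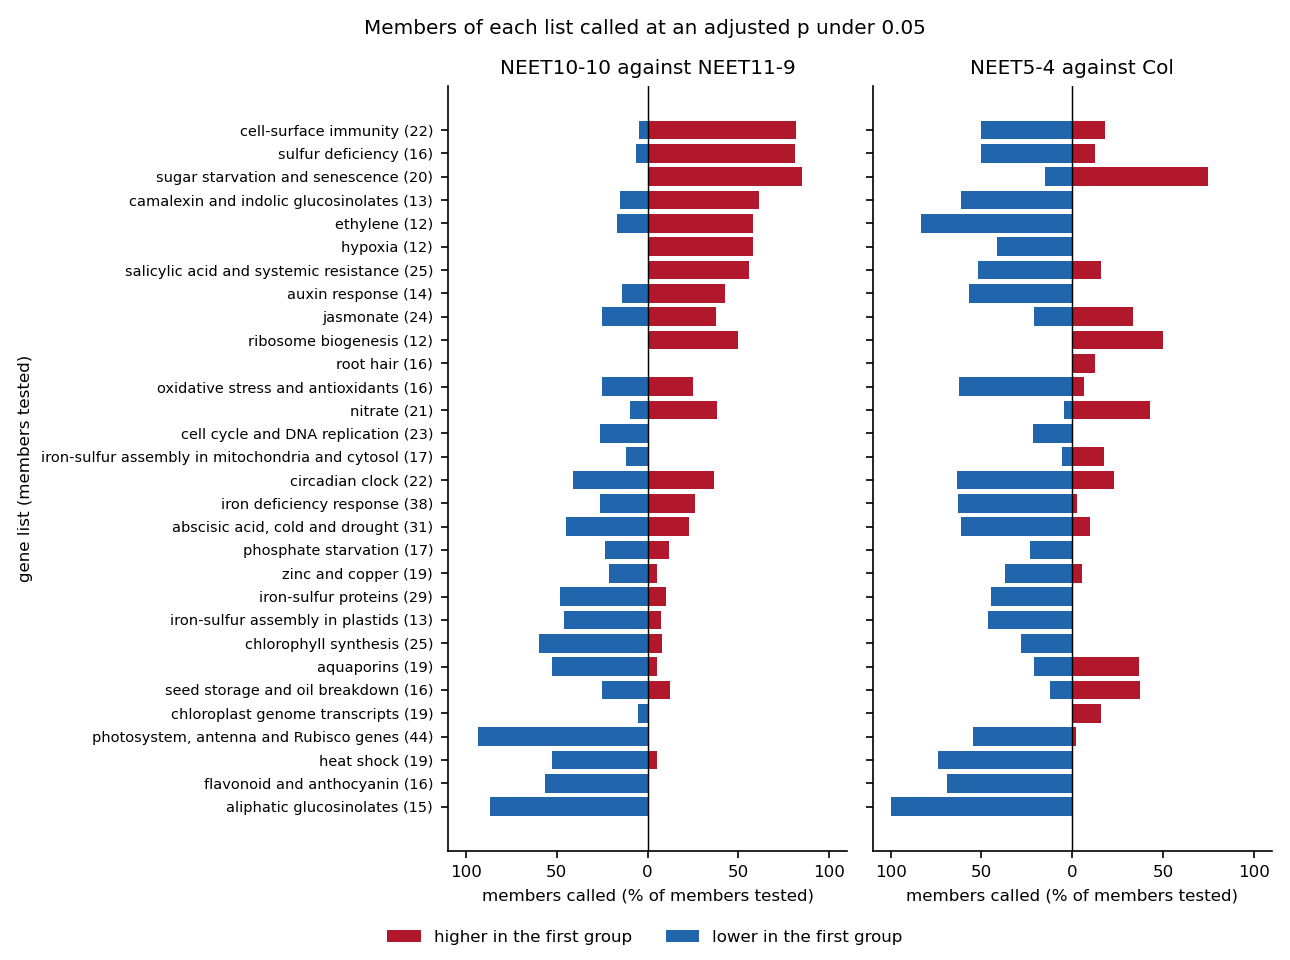
Share of the tested members of each gene list called higher (right, red) or lower (left, blue) in the first group of NEET10-10 against NEET11-9 and of NEET5-4 against Col, for lists with at least 12 tested members, ordered by their median change in the pair. The immunity, sulfur, ethylene and hypoxia lists point right in the pair and mostly left in the second comparison, and the photosystem, flavonoid and aliphatic glucosinolate lists point left in both.

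Photosynthesis genes were lower in NEET10-10 almost throughout, by small amounts. Of 44 tested photosystem, antenna and Rubisco genes, of 45 listed, 41 were lower and none higher, with a median of -0.39 and changes from -0.71 to -0.13. Their summed normalized count was 1430340 to 1606380 in NEET10-10 and 2043660 to 2109700 in NEET11-9, without overlap. LHCB1.2, an antenna protein of photosystem II, had 46471, 48673 and 48816 against 71360, 73260 and 75787, a change of -0.61 ± 0.0624 (SE; limma adjusted p of 2.09e-08). PSAD1, a subunit of photosystem I on its ferredoxin side, had 22827, 26219 and 25945 against 35164, 33558 and 34406, and LHCA2, an antenna protein of photosystem I, changed by -0.53 ± 0.0715 (SE). LHCB1 genes are near-identical copies among which reads could have been split. In NEET5-4 against Col, 24 were lower and 1 higher, and 15 were called in the test of the difference. PSAD1 was among the genes that differed, at -0.46 in the pair and -0.06 in NEET5-4 against Col (difference of -0.41, limma adjusted p of 0.000326).

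Chlorophyll synthesis followed, with 15 of 25 genes lower and 2 higher, all tested, and a median of -0.20. GUN5, the large subunit of the magnesium chelatase, had 25572, 27676 and 27123 in NEET10-10 and 35696, 35506 and 34150 in NEET11-9 (-0.39 ± 0.0479 SE, limma adjusted p of 4.69e-07), and it was also lower in NEET5-4 than in Col (-0.42 ± 0.0479 SE). PORC, the light-dependent protochlorophyllide reductase of green tissue, was lower by 0.37 and 0.49 in the 2 comparisons. CLH1, a chlorophyllase, had 575, 744 and 718 against 1285, 1346 and 1319 and changed by -0.96 ± 0.0836 (SE).

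Aliphatic glucosinolates are sulfur-rich defence compounds made from methionine, and their genes went down in both comparisons. In NEET10-10, 13 of 15 tested members, of 17 listed, were lower and none higher, with a median of -0.63, and in NEET5-4 against Col all 15 were lower, with a median of -0.79. CYP79F1, which takes the first step from the lengthened methionine, had 747, 855 and 819 in NEET10-10 and 1535, 1718 and 1503 in NEET11-9. The groups did not overlap, and the changes were -0.97 ± 0.112 (SE) in the pair and -1.002 ± 0.112 (SE) in NEET5-4 against Col, a difference of 0.03 that was not called (limma adjusted p of 0.928). MYB28, the main activator of these genes, was lower by 0.61 and 0.74. Flavonoid genes were lower for 9 of 16 tested members, of 21 listed, and higher for none, with CHS, the chalcone synthase that opens the pathway, at 1146, 1191 and 1344 against 1813, 1643 and 1777. Of 19 tested heat shock genes, of 23 listed, 10 were lower, a count of 6 without the second library of NEET10-10 or of NEET11-9, and 1 was higher, a count of 0 to 2 when 1 library of the pair was left out. HSP70-4, a cytosolic chaperone, had 1224, 1291 and 1331 against 2603, 2583 and 2675 (-1.03 ± 0.061 SE, limma adjusted p of 7.43e-13), and its change of -1.76 in NEET5-4 against Col was larger by 0.73 (limma adjusted p of 3.03e-07).

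Genes of abscisic acid, cold and drought were lower for 14 and higher for 7 of 31 tested members, of 32 listed. Over all tested genes, 13.7% were lower and 14.3% higher. RD29A and COR15A, both induced by cold and drought, were highest in NEET11-9, with 4896, 4848 and 4743 of RD29A against 2743, 2474 and 2461 in NEET10-10. COR15A changed by -1.13 ± 0.0764 (SE). P5CS1 and ERD5, which make and break down proline, were both higher, by 0.77 ± 0.0446 and 0.96 ± 0.0644 (SE). P5CS1 was lower by 0.87 and ERD5 higher by 1.48 in NEET5-4 than in Col. Of 19 aquaporins, all tested, 10 were lower in NEET10-10, with a median of -0.28, and 1 was higher, a count of 0 to 2 when 1 library of the pair was left out. Their median level, relative to each gene's mean over all libraries, was -0.19 in the first NEET10-10 library, 0.16 and 0.09 in the others and 0.24 to 0.30 in NEET11-9, and 8 were lower without that first library. Between NEET5-4 and Col, 7 were higher and 4 lower. KCS1, an enzyme that lengthens the fatty acids of wax, changed by -0.60 ± 0.0566 (SE) in the pair and by 0.76 in the second comparison. Clock genes divided, with 8 higher and 9 lower of 22: PRR9 and LHY, which peak early in the day, were lower by 1.75 and 0.53, and TOC1, which peaks in the evening, was higher by 0.57 ± 0.0509 (SE). All 3 moved in the same direction in NEET5-4 against Col. The labels used here give no hour of harvest.

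Iron genes did not move as a group. Of 38 tested iron deficiency genes, of 39 listed, 10 were higher and 10 lower in NEET10-10, with a median of -0.09. IRT1 and FRO2, which take up iron, were lower. IRT1, the iron transporter of the root surface, had 465, 749 and 784 in NEET10-10 and 1353, 1257 and 1420 in NEET11-9, without overlap, a change of -1.05 ± 0.141 (SE; limma adjusted p of 2.07e-06). FRO2, the ferric reductase, had 230, 288 and 338 against 607, 638 and 741 (-1.22 ± 0.126 SE). FIT, the factor that activates both, overlapped between the lines (233, 227 and 157 against 232, 237 and 257) and was not called (-0.25, limma adjusted p of 0.121). Without the first NEET10-10 library it was called, at -0.35 and an adjusted p of 0.0436 (limma), and without the third it changed by -0.07.

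Some other members of the list were higher. bHLH101, a partner of FIT, had 462, 397 and 422 in NEET10-10 and 186, 183 and 179 in NEET11-9 (1.22 ± 0.0998 SE, limma adjusted p of 4.55e-10). Its relatives bHLH100 and bHLH38 were higher by 1.08 ± 0.107 and 0.66 ± 0.149 (SE), and bHLH39, at 169, 154 and 194 against 159, 142 and 165, was not called (limma adjusted p of 0.275). BTS, a ubiquitin ligase that binds iron and limits uptake, was higher by 0.49 ± 0.0456 (SE). F6'H1, which makes iron-mobilizing coumarins and is also induced by pathogens, had 1518, 1417 and 1523 against 286, 291 and 299 (2.34 ± 0.121 SE). Between NEET5-4 and Col, 24 of the 38 were lower and 1 higher, and 23 were called in the test of the difference. There bHLH101 changed by -1.51, F6'H1 by -2.11 and BTS by -0.63, each opposite to the pair, while IRT1 was not called (-0.23, limma adjusted p of 0.231).

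Changes of iron storage and cluster assembly genes were smaller. FER1, a plastid ferritin, had 2963, 3188 and 2870 against 2146, 2053 and 1973 (0.55 ± 0.0495 SE, limma adjusted p of 2.77e-09), and VTL5, a nodulin-like iron transporter, changed by -0.66 ± 0.083 (SE). Of 13 tested genes of plastid iron-sulfur assembly, of 14 listed, 6 were lower and 1 higher, with a median of -0.15. SUFB, the scaffold of the plastid machinery, had 2784, 2779 and 2685 against 3326, 3385 and 3323, and Col, at 2642 to 2920, was level with NEET10-10. SUFD, a partner of SUFB in the scaffold, changed by -0.39 ± 0.0626 (SE). The one member that was higher, SUFE2, an activator of the plastid cysteine desulfurase, changed by 0.90 ± 0.094 (SE). Of 17 tested genes of the mitochondrial and cytosolic machineries, of 19 listed, 2 were called lower, beside 13.7% of all tested genes. The count was 1 without the first NEET10-10 library or any one of NEET11-9. Among 29 tested genes for iron-sulfur proteins, of 30 listed, 14 were lower and 3 higher, the higher ones including APR1 and APR3. FD2, the main leaf ferredoxin, had 12213, 13179 and 12417 against 15372, 15794 and 14985 (-0.29 ± 0.067 SE, limma adjusted p of 0.00179), and FD1 changed by -0.40 ± 0.0456 (SE).

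**Figure D4:**
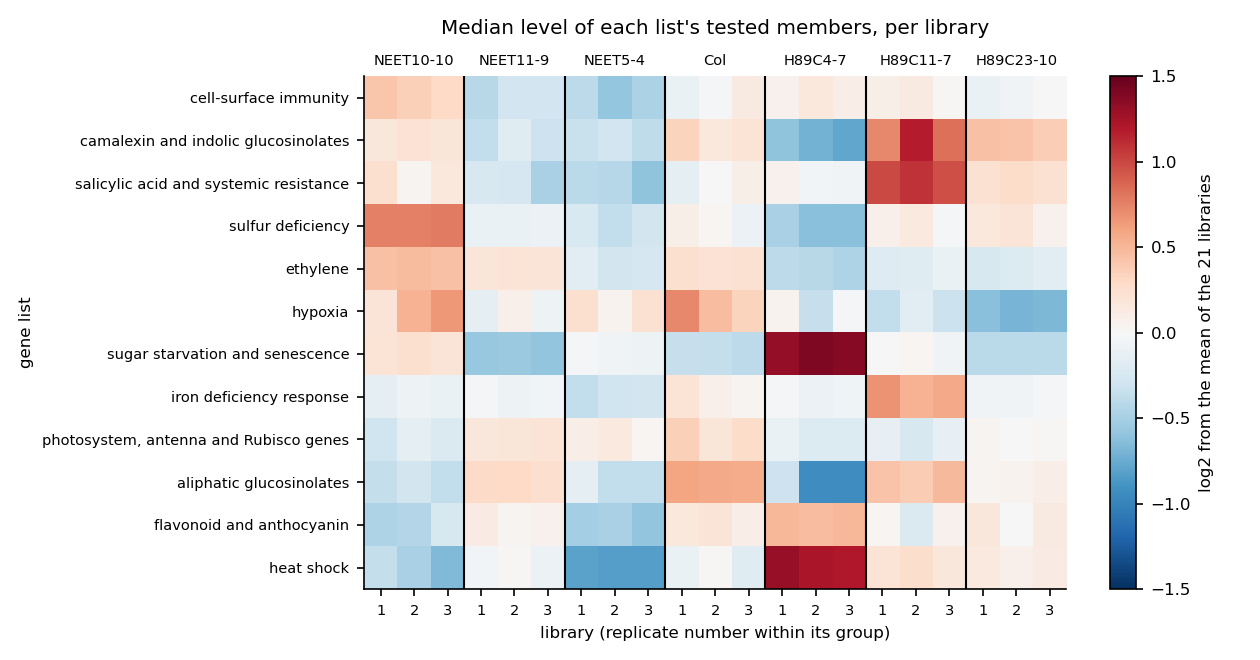
Median over the tested members of 12 lists in each of the 21 libraries, as the log2 difference from each gene's mean over all libraries (red higher, blue lower); the H89C groups are the other transgenic lines of the series. The sulfur deficiency list is highest in the 3 NEET10-10 libraries, and the camalexin, salicylic acid and cell-surface immunity lists lie below 0 in all NEET11-9 and NEET5-4 libraries and above 0 in all NEET10-10 libraries.

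Among the largest differences, that of AT4G06715 belonged to NEET10-10 alone. The other genes named below as higher in NEET10-10 were also called lower in NEET5-4 than in Col. AT4G06715, annotated as a long noncoding RNA on chromosome 4 at 9799142 to 9799750 on the plus strand (TAIR10.1), had 285, 268 and 268 in NEET10-10 and 0 in each of the other 18 libraries. With a floor of 3 reads per library the difference from NEET11-9 was at least 106-fold. AT4G06725, on the opposite strand within it, had 0 in all libraries, and since the strand setting of the counting is not given in the sources used here, reads of the 2 cannot be told apart. GSTU12, a glutathione transferase, had 84.7, 86.9 and 100.1 against 0.858, 0.837 and 2.45, and CYP706A2, a cytochrome P450, had 44.9, 68 and 75.1 against 1.72, 2.51 and 3.26. Both were also above Col, at 25.4 ± 7.64 and 12.6 ± 3.99 (SD, n = 3). AT1G26240 (an extensin-like protein), AT2G29220 (a lectin-domain kinase), AT5G25260 (a membrane protein of the flotillin type) and AT5G48430 (an aspartyl protease) were higher by 5.17, 4.67, 4.22 and 4.12, and each was under 20 in every NEET11-9 library but for AT5G48430, at 22.8 to 29.2.

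The 12 largest falls, chosen by the same rule as the rises, were smaller than the 12 largest rises, from -2.08 to -1.30. BBX31, a B-box factor of light responses, had 12.2, 25.8 and 17.9 in NEET10-10 and 82.4, 72 and 82.4 in NEET11-9 (-2.08 ± 0.224 SE, limma adjusted p of 5.99e-08). ELIP1, a light-stress protein of the thylakoid, changed by -1.77 ± 0.195 (SE), and GA3OX2, which makes active gibberellin, by -1.68 ± 0.172. BBX31, ELIP1 and GA3OX2 were lower in NEET5-4 than in Col too, with changes of -2.299, -1.72 and -0.86. AT5G15950, an S-adenosylmethionine decarboxylase of polyamine synthesis, had 342, 385 and 383 against 925, 992 and 972, and its change of -1.38 ± 0.0658 (SE) stood beside -1.32 ± 0.0658 in NEET5-4 against Col. AT1G48100, AT5G01790, AT3G06355 and AT5G02540 were also lower in both comparisons. AT2G34080, a cysteine protease, changed by -1.30 ± 0.205 (SE) in the pair and was not called in the second comparison (-0.06, limma adjusted p of 0.849).

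ARP9, an actin-related protein, had 440, 329 and 381 in NEET10-10 and 985, 1033 and 1062 in NEET11-9, while the means of the other 5 groups were 349 to 469. The difference of -1.43 ± 0.0839 (SE; limma adjusted p of 6.51e-13) thus lay with NEET11-9, whose libraries were above those of every other group. RLP37, a receptor-like protein, had 49, 37.9 and 34.9 against 102, 103 and 105, with Col at 96 ± 8.86 and NEET5-4 at 89.6 ± 4.26 (SD, n = 3), so here NEET10-10 stood apart (-1.34 ± 0.145 SE). DND1 (AT5G15410), a cyclic nucleotide-gated calcium channel whose loss raises salicylic acid and immune gene expression in Arabidopsis, was chosen after its values were seen. It had 960, 1281 and 1199 in NEET10-10 and 2499, 2715 and 2592 in NEET11-9, with Col at 2243 to 2368 and NEET5-4 at 3239 to 3489. NEET10-10 was below every library of these 3 groups, the change was -1.19 ± 0.0694 (SE; limma adjusted p of 5.54e-13), and NEET5-4 was higher than Col by 0.54 ± 0.0694. A link between the DND1 level and the immune genes of these lines was not tested.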

How the data were processed

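One table of normalized signal was deposited, with 32833 genes in 21 libraries, 3 for each of 7 groups. The submitters' processing notes name STAR 2.4.0.1, FastQC 0.11.7, TAIR10 and DESeq2 1.20.0; the counting program and its strand setting are not given in the notes. Each deposited signal column was whole reads divided by 1 size factor (100% of values within 0.001 of a whole read), with 8237916 to 24684401 reads a library. Intervals and floors cover counting error only.

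The 20699 genes that reached 10 in 3 or more libraries were tested with limma 3.58.1 (R 4.3.3, trend) on log2(value + 1), which understates changes of low genes. All 7 groups shared 1 spread (14 residual degrees of freedom), the difference between comparisons was a contrast of that fit, and Benjamini-Hochberg adjustment covered every tested gene. Scripts were tested on simulated data. Count tests on whole reads (edgeR 4.0.16, DESeq2 1.42.0) left out 2 H89C libraries whose size factor was near 1. Coordinates are from TAIR10.1.

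Named were AtNEET, the 12 largest rises and falls (called, no overlap, higher line averaging at least 50), up to 4 called members per list with the smallest adjusted p, 10 fixed iron genes and others stated as chosen later. Members, lists and motifs were chosen with earlier results of these data known.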

Additional observations from a re-analysis of the deposited data

Results flagged for a closer look

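In NEET10-10 against NEET11-9 and in NEET5-4 against Col, 1011 genes were called in opposite directions. Each was also called in the test of the difference, which follows almost by construction from the choice of genes with opposite calls and adds no evidence. Among the 12 largest rises and 12 largest falls in NEET10-10, the difference between the comparisons was called for the 12 rises and 6 of the falls (limma, log2(value + 1) scale). That test shares the values that chose these genes, so its calls add no separate evidence and the differences are given as descriptions. Rises called lower in NEET5-4 than in Col had differences of 12.8 for CYP82C2, 9.34 for GSTU12, 12.96 for AT1G26240, 10.44 for AT2G29220, 12.19 for CYP71A12, 11.36 for AT1G26410, 11.62 for AT1G26390, 9.01 for AT5G25260, 11.51 for FOX1, 5.51 for CYP706A2 and 8.77 for AT5G48430. AT4G06715, at 0 in NEET5-4 and Col, differed by 8.10. Among the falls, ARP9, called higher in NEET5-4, differed by -1.65. RLP37 and AT2G34080, not called in NEET5-4 against Col, differed by -1.25 and -1.24. PRR9, GA3OX2 and AT5G02540, lower in both comparisons, differed by 0.84, -0.83 and 0.51. Several of these genes had 0 or a few reads in some groups, where a fitted change depends on the pseudocount and is not a bound. Line and AtNEET level cannot be told apart in either comparison.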

How the results depend on the processing

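Of the counts of called genes, 2 moved by more than 1.5 times. Genes called higher in NEET5-4 than in Col went from 2923 to 1875 when only the 2 compared groups were fitted, and genes at least 2-fold lower in NEET10-10 from 78 to 49 under a filter of at least 50 in 3 libraries, which tests fewer genes. Leaving out 1 library at a time gave 4668 to 5724 calls for the pair (2472 to 2862 higher, 2196 to 2862 lower), 600 to 647 at 2-fold (524 to 551 higher, 71 to 99 lower), 5245 to 6642 for NEET5-4 against Col and 4034 to 4952 for the difference. Of 2694 values of 180 named genes under the alternatives, none changed sign and was called, 64 values of 19 genes lost the call, and FIT gained it. Apart from AtNEET, the fixed genes and those chosen later, these genes were named because the main fit called them. Their stability follows in part from that choice, and the alternatives reuse the same libraries. edgeR called 5857 genes and DESeq2 5349, sharing 5600 and 5286 with limma in the same direction. TMM scaling moved the median of all genes by -0.0086.

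Replicate numbers did not pair the libraries: the deviations of same-numbered libraries correlated by -0.012, -0.0092 and -0.0082. With the replicate number as a block, 5816 genes were called in the pair (2956 higher, 2860 lower) and 625 at 2-fold, 6404 in NEET5-4 against Col and 4695 in the difference.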
